A study of Mus musculus with 2 samples.

Results

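Matrix metalloproteinases (MMPs), ADAMTS proteinases and their tissue inhibitors (TIMPs) are described here in the cells of the developing mouse coronal suture, the joint between the frontal and parietal bones of the skull. The genes were chosen by name. Every symbol made of Mmp, Timp or Adamts followed by a number was taken if its Ensembl identifier was in the gene lists of both stages, which gave 45 of the 27514 genes the lists share. These 45 are 22 *Mmp*, 19 *Adamts* and 4 *Timp* genes. The E17.5 list holds 1 more match, *Mmp1a*, which is not in the E15.5 list and was left out. The total number of transcripts of a gene, counted as unique molecular identifiers (UMIs), was summed in each cluster of cells that the authors named and in each library. The rule uses no measured value, although the family was picked with earlier results of these data known.

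The data are single-cell transcriptomes of coronal sutures from wild type C57/BL6 embryos, with 1 deposited matrix for E15.5 and 1 for E17.5. The E15.5 library came from 10 pooled sutures that were dissociated with collagenase II at 3 mg per mL and dispase for 45 min, after which dead cells were removed. The E17.5 library joins 3 batches with 10, 3 and 3 sutures, of which the first came from 1 litter and the others from another, and which were dissociated with collagenase IV at 2 mg per mL for 30 min and sorted by FACS. No embryo carried a mutation or received a treatment, the sutures of a batch were pooled, and the sexes and the number of embryos behind a cell are not recorded. Stage, dissection, enzymes, dissociation time, sorting, embryos, sequencing site, sequencing depth and the version of the gene list all differ between the libraries. Their effects cannot be told apart. With 1 library per stage no test between stages was possible and none was run.

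MMPs are zinc-dependent enzymes that cut collagens and other components of the extracellular matrix, either in secreted form or anchored to the cell membrane. ADAMTS proteinases are secreted and act on proteoglycans such as aggrecan and versican, on the ends of procollagens or on microfibrils, depending on the member. TIMPs bind and block many of these enzymes, so matrix turnover in growing bone depends on both sides. In the skeleton the family is known for cartilage and bone remodelling, with *Mmp13*, *Mmp14* and *Mmp9* the best studied members.

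The authors placed 5340 cells of E15.5 and 6830 of E17.5 in 15 clusters, and 5335 and 6830 of these were found in the matrices, with medians of 8510 and 12301.5 UMIs per cell. OG1 to OG4 are osteogenic clusters that end in the osteoblasts of OG4, PO1 and PO2 are proliferating osteogenic cells, MG1 to MG4 are meningeal, EC1 to EC4 ectocranial, and LIG resembles ligament. Most of 27 label markers were highest where the labels place them, such as *Ifitm5* and *Dmp1* in OG4, *Cldn11* in MG4, *Ly6a* in EC2 and *Tac1* in LIG. *Pthlh* and *Scx*, checked as osteogenic and ligament markers, were instead highest in meningeal clusters in both libraries. *Erg* was highest in MG2 at E15.5 and *Tnmd* in MG1 at E17.5, where *Lef1* and *Inhba* were highest in PO2 and PO1. *Inhba* and *Runx2* were not enriched in any cluster. Levels are given as CPM, UMIs of a gene scaled to the same total for every cluster, and the parentheses after a level hold its exact Poisson 95% interval, which covers counting error only. Barcodes at E17.5 carry suffixes 1 to 3, which stand for separately captured parts of the library and are set side by side without assigning them to batches. Between 5 and 19 barcode sequences of labelled cells were shared by any pair of E15.5 and the 3 suffixes. The authors made the clusters from these same cells, so a difference between clusters describes the clusters and is not a test.

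Of the *Mmp* genes, 9 lie close together on chromosome 9 between positions 7272514 and 7699585 of GRCm38, a stretch of 427.1 kb that begins with *Mmp13* and ends with *Mmp7*. Only 2 of these genes, *Mmp13* and *Mmp3*, had enough UMIs in labelled cells to be followed. RefSeq start site sequences, from 250 bases before to 50 bases after a start in GRCm38.p6, were found for 31 of the 45 genes, with 34 start sites. The letters TGAGTCA, the core bound by AP-1 factors such as Fos and Jun, or their reverse complement TGACTCA, stood in 6 of the 34 start sites, against 5.2% of all 32851 start sites in the table. All 6 belong to genes of the chromosome 9 stretch. The letters TGTGGTT of the Runx core, or their reverse complement AACCACA, stood in start sites of 3 member genes, *Mmp13*, *Mmp27* and *Mmp7*, against 5.27% of all start sites. *Mmp13* held both, and it is printed with *Mmp3* because these are the genes of the stretch with values below. Capitals mark the AP-1 and Runx letters, and the sequences run 5′ to 3′ along the gene.
Mmp13, chr9:7272264-7272563, plus strand: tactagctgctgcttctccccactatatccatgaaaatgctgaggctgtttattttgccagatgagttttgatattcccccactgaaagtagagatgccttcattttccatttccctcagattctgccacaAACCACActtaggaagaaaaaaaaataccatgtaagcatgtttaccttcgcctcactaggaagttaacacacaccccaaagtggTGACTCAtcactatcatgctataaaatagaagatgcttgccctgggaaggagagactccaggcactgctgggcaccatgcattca
Mmp3, chr9:7445572-7445871, plus strand: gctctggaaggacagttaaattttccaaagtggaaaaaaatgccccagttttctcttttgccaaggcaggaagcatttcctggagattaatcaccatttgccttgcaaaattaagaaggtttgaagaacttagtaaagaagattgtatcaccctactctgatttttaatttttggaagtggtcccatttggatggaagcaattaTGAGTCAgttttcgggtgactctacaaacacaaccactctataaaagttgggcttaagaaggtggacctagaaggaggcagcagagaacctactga
The remaining start sites with the AP-1 letters are shown as 30 bases each, since their genes were at or near 0 UMIs in labelled cells.
Mmp10, chr9:7502267-7502296, plus strand: atagcacccatgTGAGTCAtgcttagtgac
Mmp12, chr9:7347318-7347347, plus strand: tgacatcaacagTGAGTCAgatagaggatt
Mmp1b, chr9:7388102-7388131, minus strand: tgttacaaagccTGAGTCAtatagcctctg
Mmp7, chr9:7692015-7692044, plus strand: aaagtgtgcaaaTGAGTCAcctatttccac
The letters began 35 bases before the start in *Mmp13*, 46 in *Mmp3*, 63 in *Mmp10*, 44 in *Mmp12*, 93 in *Mmp1b* and 63 in *Mmp7*. A match of letters is a description of the sequence and says nothing of binding in these cells, and matching letters stood before genes of very different levels. *Mmp13* had 480 UMIs at E15.5 and 3179 at E17.5, *Mmp3* 30 UMIs at E15.5 and 130 at E17.5, *Mmp12* 4 UMIs at E15.5 and 1 at E17.5, *Mmp10* 0 UMIs and 1 UMI, while *Mmp1b* and *Mmp7* had none.

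Of the 45 genes, 34 had at least 50 UMIs over both libraries and at least 1 in each, namely 12 *Mmp*, 18 *Adamts* and all 4 *Timp* genes. The 11 genes below this limit were *Mmp1b*, *Mmp7*, *Mmp8*, *Mmp10*, *Mmp12*, *Mmp20*, *Mmp21*, *Mmp24*, *Mmp25*, *Mmp27* and *Adamts13*. *Mmp1b*, *Mmp7* and *Mmp21* had no UMI in labelled cells, which allows a level of up to 0.0617 CPM at E15.5 and 0.0324 CPM at E17.5 by the limit of 3 counts. Most of the transcripts came from a few genes. *Mmp14* held 38.8% (E15.5) and 34.8% (E17.5) of all *Mmp* UMIs and *Mmp2* held 27.1% (E15.5) and 34.1% (E17.5). *Timp2* held 59.6% (E15.5) and 54.9% (E17.5) of the *Timp* UMIs, and *Adamts5* held 32.8% (E15.5) and 23.3% (E17.5) of the *Adamts* UMIs. *Adamts2* held 13.4% (E15.5) and 30.4% (E17.5), where it was the first of its family. Since the reagents capture the 3′ end of a transcript, a longer gene does not collect more UMIs for its length, but capture can still differ between genes and a level compared between genes is approximate.

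**Figure D1:**
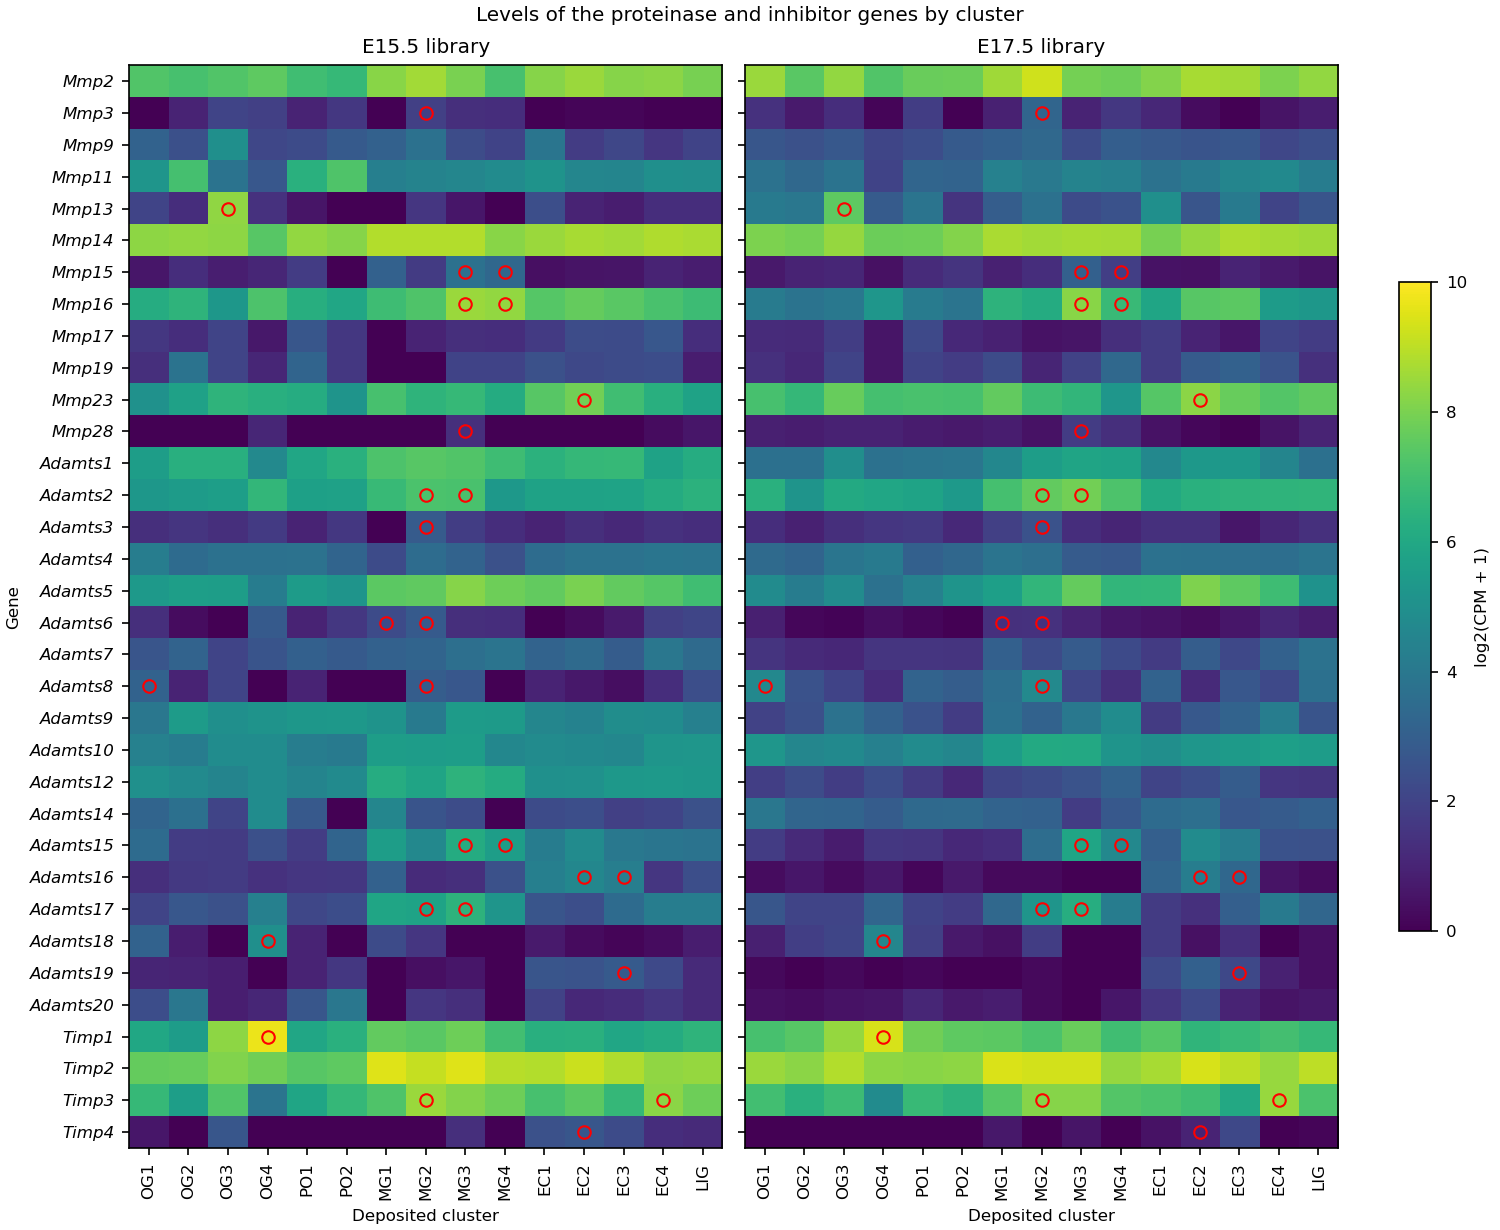
Levels of the 34 genes with enough UMIs, as log2(CPM + 1), in the 15 clusters (columns) of the E15.5 and the E17.5 library. Red circles mark a gene at least 2-fold above the other labelled cells in both libraries. The bright rows of *Mmp14*, *Mmp2* and *Timp2* run through every cluster, whereas *Mmp13* stands out in OG3 and *Timp1* in OG4.

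The gelatinases *Mmp2* and *Mmp9* degrade denatured collagen and the collagens of basement membranes. *Mmp2* (chr8:92827291-92853420) was found in all 15 clusters, from 103 CPM in PO2 to 388 CPM in MG2 at E15.5 and from 156 CPM in OG4 to 627 CPM in MG2 at E17.5. Its highest cluster was MG2, part of the dura mater, with 388 CPM (366 to 412) in the E15.5 library and 627 CPM (605 to 649) in the E17.5 library. The 3 suffixes gave 680.3, 597 and 613 CPM there. In the meningeal, ectocranial and ligament-like clusters *Mmp2* was mostly above its level in the osteogenic clusters, but not by enough to be called in both libraries. *Mmp9* (chr2:164940780-164955850), known as an osteoclast gene, ranged from 1.95 CPM in EC4 to 30.9 CPM in OG3 at E15.5 and from 3.24 CPM in OG4 to 9.50 CPM in MG2 at E17.5. In OG3 it measured 30.9 CPM (22.1 to 42.1) in the E15.5 library and 5.82 CPM (4.58 to 7.30) in the E17.5 library, with 7.90, 5.75 and 4.50 CPM in the suffixes and a UMI in 15% and 7.12% of the cells. Macrophages-like cells outside the labelled clusters held 15.4 CPM at E15.5 and 5.96 CPM at E17.5, and macrophages can transcribe *Mmp9* themselves. At E15.5 only OG3 was above them, and at E17.5 the labelled clusters lay on both sides of their level, with MG2 the highest.

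Membrane-type MMPs are fixed to the cell surface, where *Mmp14* activates *Mmp2* and cuts fibrillar collagen. *Mmp14* (chr14:54431612-54445364) was the most even of the abundant genes, from 167 CPM in OG4 to 462 CPM in MG3 at E15.5 and 215 CPM in OG4 to 430.1 CPM in EC3 at E17.5. In MG1, its highest cluster over both libraries, it measured 458 and 418 CPM, and suffixes 2 and 3 held 424 and 414 CPM, MG1 having no cell of suffix 1. No cluster reached 2-fold in both libraries, and osteoblasts of OG4 were at the low end with 167 CPM (149 to 187) in the E15.5 library and 215 CPM (206 to 224) in the E17.5 library. *Mmp16* (chr4:17852893-18119145), a close relative of *Mmp14*, had a steeper profile. It was highest in MG3, with 357 CPM (331 to 384) in the E15.5 library and 297 CPM (274 to 322) in the E17.5 library. MG4 came next at E15.5 with 331 CPM (289 to 378), but at E17.5 its 109.5 CPM (95.1 to 125) stood below EC3 at 176 CPM and EC2 at 167 CPM. Relative to the other labelled cells of the library this was 2.41-fold and 6.08-fold in MG3 and 2.15-fold and 2.06-fold in MG4. The suffixes of E17.5 held 251, 345 and 301 CPM in MG3, so all 3 stood above the level of every other cluster of that library. *Mmp15*, another membrane-bound member, followed the same 2 clusters at low levels, with 12.2 and 7.35 CPM in MG3 and 9.03 and 2.63 CPM in MG4, while no other labelled cluster passed 7.64 CPM, a value from 2 UMIs in MG1 at E15.5. The suffixes of MG3 held 10.4, 4.05 and 7.22 CPM of *Mmp15*. *Mmp17*, anchored through a lipid, stayed at or below 5.62 CPM in every cluster and was not called. *Mmp24* and *Mmp25*, known from neurons and leukocytes, were rare. In the 2 libraries *Mmp24* had 1 and 13 UMIs, and *Mmp25* had 7 and 3.

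*Mmp13*, the main collagenase of cartilage and bone in rodents, had the sharpest profile of the family (chr9:7272514-7283331). In OG3, which holds pre-osteoblasts of the bone surface, it measured 321 CPM (291 to 353) in the E15.5 library and 185 CPM (177 to 192) in the E17.5 library. The other labelled cells together held 1.37 and 10.0 CPM, a 234-fold and 18.4-fold difference. The suffixes held 253, 160.1 and 165 CPM, all far above the remaining clusters. The gene is a marker by which OG3 was described on these same cells, so its peak in OG3 is no independent result. A UMI of *Mmp13* was found in 40.0% and 39.1% of OG3 cells, at medians of 8519 and 12948 UMIs per cell. In macrophages-like cells, with medians of 9667 and 9570.5 UMIs, the shares were 0.746% and 5.19%. After every cell was thinned to 3000 UMIs the OG3 shares were 30.1% and 22.1%. A UMI of *Mmp13* was thus found in a minority of OG3 cells at either stage. Mature osteoblasts of OG4 held 1.66 CPM (0.342 to 4.84) in the E15.5 library and 6.38 CPM (4.95 to 8.11) in the E17.5 library, against 0.702 CPM at E15.5 and 5.36 CPM at E17.5 in macrophages-like cells.

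The stromelysins cut proteoglycans and activate other MMPs. *Mmp3*, a neighbour of *Mmp13* at a distance of 162.5 kb (chr9:7445822-7455975), was called in MG2 with 2.70 CPM (1.16 to 5.31) in the E15.5 library and 8.68 CPM (6.25 to 11.7) in the E17.5 library. The suffixes held 8.05, 6.17 and 11.3 CPM there. At E15.5 the levels of OG3 and OG4, 3.09 and 2.76 CPM from 4 and 5 UMIs, did not differ from MG2 beyond counting error, whereas at E17.5 no other cluster passed 2.48 CPM. *Mmp11*, or stromelysin-3 (chr10:75923222-75936496), was the member whose order of clusters changed most. At E15.5 it led in PO2 with 153 CPM (120.0 to 192), in OG2 with 132 CPM (121 to 144) and in PO1 with 80.3 CPM (68.5 to 93.6). At E17.5 the same clusters held 8.03, 9.46 and 8.53 CPM, OG2 with 6.89, 10.6 and 9.08 CPM in the suffixes, and the highest was EC4 at 25.8 CPM (21.3 to 31.0). The early osteogenic and proliferating clusters thus led in the first library only, and OG4 was lowest in both, at 5.53 and 3.05 CPM. Across the 15 clusters Spearman's rho between the libraries was -0.307 for *Mmp11*, the lowest of the 34 genes, whereas it was 0.889 for *Mmp16*, the highest, and the median was 0.541. These are descriptions over clusters that share a library and its depth.

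Among the other MMPs, *Mmp23*, which is held in the membrane by its N-terminal end and then released (chr4:155650655-155653384), led in EC2, a hypodermal cluster above the bones. It measured 236 CPM (226 to 246) in the E15.5 library and 309 CPM (297 to 322) in the E17.5 library, and the suffixes held 289, 324 and 312 CPM. OG1 and LIG, at 32.2 and 135 CPM and 53.9 and 189 CPM, were among its lowest clusters at E15.5 and not at E17.5. *Mmp19* was highest in OG2 at E15.5 with 12.9 CPM (9.68 to 16.9) and in MG4 at E17.5 with 9.48 CPM (5.62 to 14.98), and was not called in either. *Mmp28*, or epilysin, was called in MG3 at 1.53 and 2.45 CPM, but this rests on 3 and 5 UMIs. *Mmp12*, the macrophage elastase, and *Mmp20*, the enzyme of tooth enamel, stayed below the limit of 50 UMIs, as did *Mmp27*, whose 20 UMIs lay mostly in OG2 and PO1 at E15.5.

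**Figure D2:**
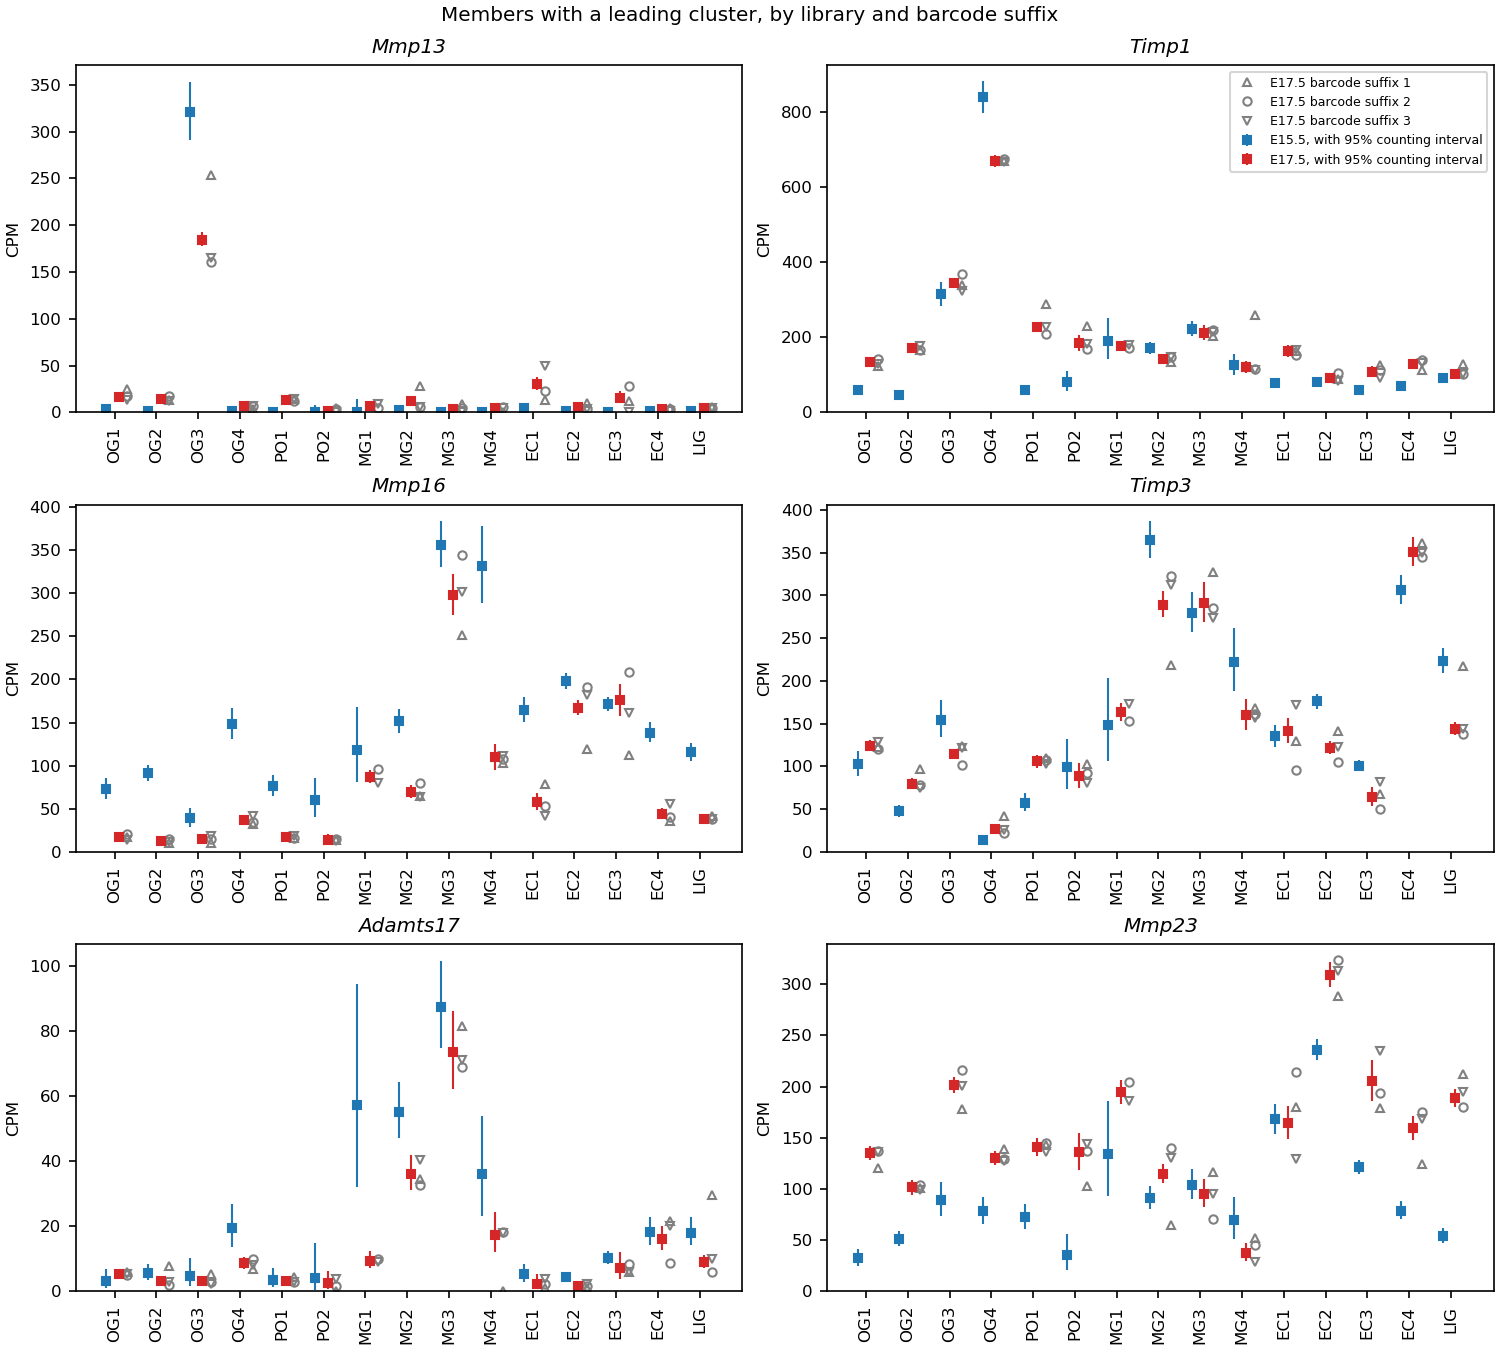
CPM of 6 genes in the 15 clusters at E15.5 (blue) and E17.5 (red), with exact Poisson 95% intervals as bars and the 3 E17.5 barcode suffixes as grey symbols. *Mmp13* peaked in OG3, *Timp1* in OG4, *Mmp16* and *Adamts17* in MG3 and *Mmp23* in EC2 in both libraries, while *Timp3* had its peaks in MG2 and EC4.

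The ADAMTS members that cut aggrecan and versican include *Adamts5*, the most abundant of the family at E15.5. *Adamts5*, the leading aggrecanase of mouse cartilage (chr16:85856173-85901828), did not pass 47.8 CPM in an osteogenic cluster and was lowest in OG4 with 17.1 and 12.4 CPM. It was higher in MG3, with 289.9 CPM (267 to 315) in the E15.5 library and 197 CPM (178 to 217) in the E17.5 library, and in EC2, with 255 CPM (245 to 265) and 264 CPM (252 to 275). The suffixes of EC2 held 283, 242 and 268 CPM. Its neighbour *Adamts1*, 53.1 kb away on chromosome 16 (chr16:85793827-85803113), was highest in MG2 at E15.5 with 170.5 CPM (156 to 186) and in MG3 at E17.5 with 56.8 CPM (47.0 to 68.2). Osteoblasts of OG4 held 25.4 and 12.3 CPM, and macrophages-like cells 44.9 and 8.94 CPM. OG4 was thus below macrophages-like cells at E15.5 and slightly above them at E17.5, and a part of free RNA in these levels was not tested. *Adamts15* (chr9:30899155-30922452), a versican-cutting relative, was called in MG3 with 70.7 CPM (59.4 to 83.5) in the E15.5 library and 57.8 CPM (47.9 to 69.2) in the E17.5 library and in MG4 with 46.7 and 24.7 CPM, and its suffixes held 69.3, 56.8 and 51.6 CPM in MG3. *Adamts8*, which lies 20.1 kb from *Adamts15* (chr9:30942562-30963838), had another profile. It was called in the osteoprogenitor cluster OG1 with 7.80 CPM (4.37 to 12.9) in the E15.5 library and 24.7 CPM (21.9 to 27.7) in the E17.5 library and in MG2 with 6.74 CPM (4.12 to 10.4) and 25.2 CPM (20.9 to 30.1), with 34.5, 23.2 and 24.0 CPM in the suffixes of OG1. MG4 was at 0 and 1.58 CPM. The neighbouring genes were thus highest in different clusters, MG3 being first for *Adamts15* and at 5.59 and 3.43 CPM for *Adamts8*.

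*Adamts4*, the second classical aggrecanase (chr1:171250421-171260637), varied little among the larger clusters. It ranged from 3.82 CPM in MG1 to 17.7 CPM in OG1 at E15.5 and from 5.79 CPM in MG4 to 15.9 CPM in OG4 at E17.5, with 16.7, 12.7 and 18.7 CPM in the suffixes of OG4. *Adamts9*, a versican-cutting enzyme (chr6:92772699-92943492), led in MG3 at E15.5 with 44.3 CPM (35.4 to 54.6) and in MG4 at E17.5 with 27.9 CPM (20.9 to 36.5), with OG2 close behind at 43.9 CPM (37.7 to 50.8) in the earlier library. The suffixes of MG4 spread from 0 to 31.5 CPM, suffix 1 having 7 cells there. *Adamts20*, known from a pigment mutant of mice, was seen at E15.5 mainly in OG2 with 14.6 CPM (11.2 to 18.8) and PO2 with 14.5 CPM (5.81 to 29.8), and was at 0.252 and 0.617 CPM in those clusters at E17.5. None of the 3 was called in a cluster in both libraries.

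Procollagen N-proteinases trim collagen precursors before fibrils form. *Adamts2*, the main enzyme for collagens I and III (chr11:50602084-50807573), was called in MG2 and MG3. MG2 held 143 CPM (129.9 to 157) in the E15.5 library and 194 CPM (182 to 207) in the E17.5 library, and MG3 held 139 CPM (123 to 157) and 236 CPM (216 to 258). The suffixes in MG3 gave 274, 205 and 229.9 CPM. The osteoblasts of OG4, which make the most collagen I transcripts at E15.5, held 97.8 and 58.9 CPM, below both dural clusters, and OG2 held 44.4 and 34.9 CPM. *Adamts14*, its paralog, was highest in OG4 at E15.5 with 28.2 CPM (21.0 to 37.1) and in OG1 at E17.5 with 14.8 CPM (12.7 to 17.2), when OG4 held 6.48 CPM, with 7.49, 6.56 and 6.01 CPM in the suffixes. *Adamts3*, which also processes a vascular growth factor precursor, was called in MG2 at 6.40 and 4.75 CPM.

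The remaining ADAMTS genes act on microfibrils, on the cartilage protein COMP or on substrates that are less well known. *Adamts17*, a microfibril-associated member (chr7:66839735-67153171), was called in both MG3 and MG2. It measured 87.5 CPM (74.9 to 102) in the E15.5 library and 73.5 CPM (62.2 to 86.3) in the E17.5 library in MG3 and 55.3 CPM (47.1 to 64.4) and 36.2 CPM (31.0 to 41.9) in MG2, with suffix values of 81.4, 68.9 and 71.1 CPM in MG3. No osteogenic cluster passed 19.3 CPM. *Adamts10*, which also acts at microfibrils, was not called and ranged from 16.5 CPM in PO2 to 46.3 CPM in MG3 at E15.5 and from 19.4 CPM in OG4 to 67.1 CPM in MG2 at E17.5, where the suffixes held 74.7, 60.5 and 67.4 CPM in MG2. *Adamts6*, the paralog of *Adamts10*, was called in MG1 at 3.82 and 1.63 CPM and in MG2 at 6.06 and 1.65 CPM. The MG1 call rests on 1 and 9 UMIs, and at E15.5 OG4 was as high as MG2, with 6.08 CPM. *Adamts16* was called in the hypodermal clusters EC2, with 23.7 CPM (20.6 to 27.0) in the E15.5 library and 17.99 CPM (15.2 to 21.2) in the E17.5 library, and EC3, with 18.2 and 9.14 CPM, and *Adamts19* in EC3 at 6.15 and 3.55 CPM. EC2 held 4.89 and 7.30 CPM of *Adamts19* and did not reach the limit in both libraries. The suffixes of EC2 held 17.9, 17.4 and 18.6 CPM of *Adamts16*. *Adamts18*, the closest relative of *Adamts16* (chr8:113697126-113848738), was instead called in OG4, with 30.4 CPM (22.9 to 39.6) in the E15.5 library and 22.8 CPM (19.97 to 25.8) in the E17.5 library and suffix values of 16.7, 18.5 and 29.1 CPM. Apart from OG4, the highest cluster was OG1 at 7.80 CPM (4.37 to 12.9) at E15.5 and OG3 at 3.26 CPM (2.35 to 4.41) at E17.5. The paralogs were thus called in different clusters, *Adamts16* being at 1.66 and 0.572 CPM in OG4. *Adamts7* and *Adamts12*, which cut COMP, were not called in any cluster. *Adamts12* ranged from 21.6 CPM in OG3 to 87.0 CPM in MG3 in the first library. In the second it ranged from 1.23 CPM in PO2 to 7.90 CPM in MG4. *Adamts7* went from 3.09 CPM in OG3 to 14.4 CPM in EC4 and, at E17.5, from 1.16 CPM in OG3 to 12.5 CPM in LIG, with 14.7, 16.2 and 9.07 CPM in the suffixes of LIG.

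*Timp1*, a soluble inhibitor of most MMPs (chrX:20870166-20874735), marked the osteoblasts. OG4 held 838 CPM (797 to 882) in the E15.5 library and 669.7 CPM (654 to 686) in the E17.5 library, or 9.31 times and 3.78 times the level of all remaining labelled cells. The suffixes held 669, 673 and 667 CPM, a spread smaller than the interval of the pooled level. OG3 came next in both libraries, at 314 CPM (284 to 346) in the E15.5 library and 345 CPM (335 to 355) in the E17.5 library, while OG2 was lowest at E15.5 with 45.3 CPM (39.1 to 52.3). A UMI of *Timp1* was in 90.0% and 97.7% of OG4 cells, against 21.3% and 23.2% of macrophages-like cells, with medians of 7351.5 and 19349 UMIs in OG4 and of 9667 and 9570.5 in macrophages-like cells. *Timp2*, which also takes part in the activation of *Mmp2* by *Mmp14* (chr11:118301069-118355740), was abundant everywhere and highest in MG1, with 737 CPM (637 to 848) in the E15.5 library and 685 CPM (663 to 707) in the E17.5 library. At E15.5 MG3, with 734 CPM (697 to 773), and at E17.5 EC2, with 679.6 CPM (662 to 698), did not differ from MG1 beyond counting error. Suffixes 2 and 3 of MG1 held 682 and 687 CPM, and no cluster reached 2-fold.

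*Timp3* binds to the matrix and blocks several ADAMTS enzymes as well as MMPs (chr10:86300372-86349506). It was called in MG2, with 365 CPM (343 to 387) in the E15.5 library and 289 CPM (274 to 305) in the E17.5 library, and in EC4, the mesenchyme above the suture, with 307 CPM (290.1 to 324) and 351 CPM (334 to 369). The suffixes held 361, 346 and 349.8 CPM in EC4. Osteoblasts were at the other end, with 13.3 CPM (8.50 to 19.7) in the E15.5 library and 27.1 CPM (24.0 to 30.4) in the E17.5 library. OG4 thus held the highest *Timp1* and the lowest *Timp3* in both libraries. MG3 held 279.7 and 292 CPM of *Timp3* without a call, being close to MG2 at E17.5 but below the limit of 2-fold at E15.5. *Timp4* was called in EC2 at 5.43 and 1.01 CPM, on 50 and 8 UMIs. EC3, without a call, was highest at E17.5 with 3.55 CPM and led over both libraries with a mean of 3.74 CPM. *Timp1* overlaps *Syn1*, *Timp3* overlaps *Syn3* and *Timp4* overlaps *Syn2*, and reads in such a stretch can be assigned to either gene if the counting does not use strand. The same holds for *Mmp11* and *Chchd10*, and for *Mmp19* and *Tmem198b*.

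A gene was called in a cluster when its CPM was at least 2 times that of the other labelled cells in both libraries. Of the 510 pairs of a gene and a cluster, 27 were called (5.29%), against 2.17% of the pairs over all genes. Counted by gene, 18 of 34 members (52.9%) were called in at least 1 cluster, against 24.3% of all 13938 genes with enough UMIs. By family these were 6 of 12 *Mmp*, 9 of 18 *Adamts* and 3 of 4 *Timp* genes. MG2 took 7 of the calls, *Adamts2*, *Adamts3*, *Adamts6*, *Adamts8*, *Adamts17*, *Mmp3* and *Timp3*, which are 20.6% of the 34 genes against 2.84% of all genes. MG3 took 6, *Mmp15*, *Mmp16*, *Mmp28*, *Adamts2*, *Adamts15* and *Adamts17*, which are 17.6% against 3.96%. MG4 and EC2 took 3 each, 8.82% against 3.83% and 2.77%, and OG4 took 2, 5.88% against 3.47%. EC3 also took 2, or 5.88% against 1.65%. OG1, OG3, MG1 and EC4 took 1 each, 2.94% against 0.624%, 0.997%, 1.62% and 1.52%. No member was called in OG2, PO1, PO2, EC1 or LIG, where 0.359%, 4.01%, 3.1%, 0.818% and 1.04% of all genes were.

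The transcripts of inhibitors and proteinases were also set against each other in every cluster, as UMIs of the 4 *Timp* genes per UMI of the *Mmp* genes. OG4 stood apart with 1.80 (1.67 to 1.94) at E15.5 and 1.82 (1.77 to 1.88) at E17.5, and its suffixes gave 1.86, 1.86 and 1.78. The osteoblasts combined the highest *Timp1* with *Mmp14* and *Mmp2* at the low end of their ranges. MG3 was at 1.01 (0.958 to 1.07) and 1.04 (0.982 to 1.10), with both intervals holding 1. OG2, the pre-osteoblasts of the suture, had the lowest value at E15.5, 0.384 (0.359 to 0.410), and stood at 0.991 (0.950 to 1.03) at E17.5. PO1 likewise was at 0.402 (0.365 to 0.443) and 1.00 (0.962 to 1.04). EC3 was lowest at E17.5 with 0.549 (0.513 to 0.587), near its 0.6004 (0.582 to 0.619) at E15.5. These are ratios of transcript counts and not of protein or activity.

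**Figure D3:**
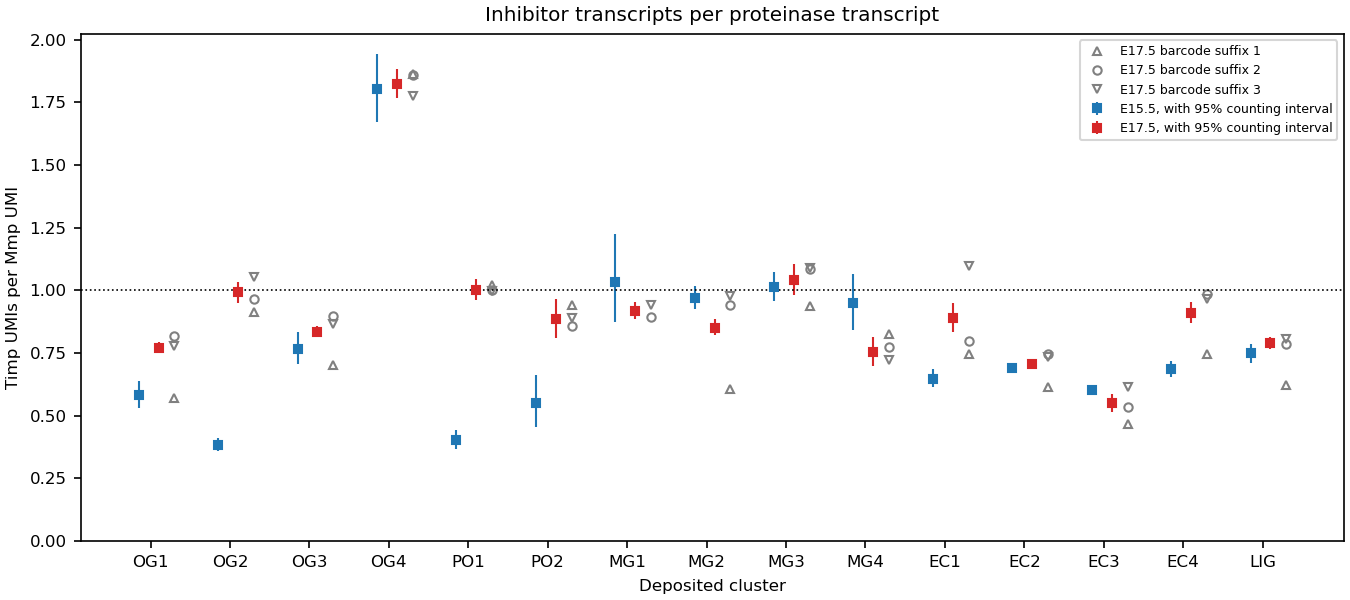
UMIs of the 4 *Timp* genes divided by UMIs of the *Mmp* genes in each cluster, at E15.5 (blue) and E17.5 (red), with 95% counting intervals as bars and the 3 E17.5 barcode suffixes as grey symbols. The dotted line marks equal numbers, and OG4 lies above it at 1.80 and 1.82.

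Levels at E17.5 were compared with those at E15.5 within the 12 clusters that had at least 100 cells in each library, which leaves out PO2, MG1 and MG4. A gene was called when the levels differed at least 2-fold without overlap of their intervals, given at least 50 UMIs in the cluster over both libraries. Of 237 pairs of a member and a cluster, 26 were higher at E17.5 (11%, against 6.28% over all genes) and 65 were lower (27.4%, against 7.18%). The median ratio over the pairs was 0.887, and 1.02 over all genes. The families differed, with 15 higher and 16 lower among 79 *Mmp* pairs, 6 and 48 among 121 *Adamts* pairs, and 5 and 1 among 37 *Timp* pairs. Of the 29 members counted in at least 1 cluster, 9 had a higher call and 14 a lower one, *Adamts14* having both, and 7 had none. Members with a call were thus 22 of 29, with 8 only higher and 13 only lower. Over all genes 5308 of 11581 had a call, with 2579 only higher, 2426 only lower and 303 both.

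The calls were spread unevenly over the clusters. OG1 had the most higher calls, for *Timp1*, *Mmp2*, *Mmp13*, *Mmp23*, *Adamts2* and *Adamts8*, which are 6 of its 20 counted members where 5.88% of all genes were higher, beside 5 lower members where 7.84% were lower. OG2 had 2 higher and 8 lower of 20, in a cluster where 8.05% of all genes were higher and 12.2% lower. In OG3 the counts were 2 and 5 of 18 (all genes 4.52% and 6.04%), in OG4 2 and 6 of 18 (13.8% and 6.22%), and in PO1 3 and 6 of 18 (7.69% and 8.69%). The dural clusters had 3 and 5 of 22 in MG2 (4.59% and 3.48%) and 0 and 3 of 16 in MG3 (4.26% and 3.6%). Among the ectocranial clusters EC1 had 2 and 8 of 19 (5.83% and 8.59%), EC2 2 and 5 of 25 (5.7% and 6.06%), EC3 0 and 3 of 21 (5.08% and 8.33%) and EC4 1 and 4 of 18 (4.67% and 6.62%). LIG had 3 and 7 of 22 (4.94% and 7.47%). Lower calls outnumbered higher ones in every cluster except OG1. This order holds for CPM. With mean UMIs per cell, which are not scaled for the greater depth of the E17.5 cells, 57 pairs were higher and 48 lower, where 23% and 3.62% of all pairs were.

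*Adamts1* and *Adamts12* were lower at E17.5 in all 12 clusters. They are 2 of the 13 members counted in every one of the 12, and 46 of 6475 genes (0.71%) were lower throughout in the same way. No member was higher throughout, as 51 genes (0.788%) were. *Adamts12* was lower by between 6.02-fold and 20.5-fold. In MG3 it went from 87.0 CPM (74.4 to 101) to 4.90 CPM (2.35 to 9.01), with 3.46, 6.08 and 5.16 CPM in the suffixes, and in LIG from 37.9 CPM (32.1 to 44.4) to 1.85 CPM (1.08 to 2.96). Macrophages-like cells held 5.27 CPM at E15.5 and 0.397 CPM at E17.5, pericytes-like cells 17.2 and 3.099 CPM, and chondrocytes-like cells 5.78 and 4.39 CPM.

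*Adamts1* was lower by between 2.07-fold and 6.45-fold. It went from 77.3 CPM (69.0 to 86.3) to 11.98 CPM (9.69 to 14.6) in OG2 and from 170.5 CPM (156 to 186) to 46.9 CPM (41.0 to 53.4) in MG2, where the suffixes held 70.3, 48.2 and 28.6 CPM. *Adamts9* was lower in 11 of 12 clusters, for example in OG2 from 43.9 CPM (37.7 to 50.8) to 4.41 CPM (3.07 to 6.14), EC4 being the exception at 27.8 and 17.8 CPM. The summed level of 15 genes that respond to tissue dissociation was also lower at E17.5 in each of the 15 clusters, and in OG2 it was 5347 CPM at E15.5 and 2141 CPM at E17.5. Suffix 1 alone was above E15.5 in OG1, OG3 and OG4, with 3239.9, 6721 and 5139.7 CPM against 3133, 5893 and 4438 CPM. *Atf3*, *Jun*, *Fosb* and *Nr4a1* of that list were lower in 12 of 12 clusters and *Jund* was higher in 8. Their part in the lower levels of *Adamts1*, *Adamts9* and *Adamts12* was not tested. *Adamts1* was also lower at E17.5 in most unlabelled types, for example from 21.0 to 3.43 CPM in osteoclasts-like cells and from 44.9 to 8.94 CPM in macrophages-like cells. It was not lower in 2 types and lay within counting error in another. Pericytes-like cells held 193 CPM (175 to 213) of *Adamts1* in the first library and 245 CPM (225 to 267) in the second, glia-like cells 109 CPM (92.0 to 129) and 188 CPM (144 to 240.4), and endothelial-like cells 148 CPM (117 to 186) and 139 CPM (121 to 159).

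*Mmp16* was lower in 9 of 12 clusters, by up to 7-fold in OG2, where it went from 90.9 CPM (81.9 to 101) to 13.0 CPM (10.6 to 15.8). The 3 clusters without a call were MG3, EC2 and EC3, the 3 highest at E17.5, so the profile of *Mmp16* was steeper in that library. Macrophages-like cells held 20.7 CPM at E15.5 and 2.58 CPM at E17.5 and monocytes-and-granulocytes-like cells 17.48 CPM at E17.5, and in that library the osteogenic clusters OG1, OG2, OG3 and PO1 lay between 13.0 and 17.1 CPM. *Mmp11* was lower in OG1, OG2, PO1 and EC1. *Adamts5* was lower in OG2, PO1 and LIG, *Adamts15* in MG2, EC1, EC4 and LIG, and *Adamts17* in OG4, EC2 and LIG. *Mmp9* was lower in OG3 and EC1, *Adamts16* in EC1, *Mmp19* and *Adamts20* in OG2, and *Timp4* in EC2. *Adamts14* was 4.35-fold lower in OG4 and 2.73-fold higher in EC2.

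Of the genes that were higher at E17.5, *Mmp13* had the most calls, in 8 of 9 counted clusters. OG3, its own cluster, was the exception with 1.74-fold less at E17.5. The calls start from levels of 0.490 to 4.23 CPM and differ in weight. OG4, EC2 and LIG, at 6.38, 5.28 and 4.996 CPM, were near the 5.36 CPM (3.53 to 7.80) of macrophages-like cells, which themselves had 0.702 CPM at E15.5. Whether free RNA gave these levels was not tested. OG1 at 16.1 CPM (13.9 to 18.6), OG2 at 14.6 CPM (12.1 to 17.55), PO1 at 13.5 CPM (10.9 to 16.4) and EC1 at 30.4 CPM (24.0 to 38.1) were above the level of macrophages-like cells. In MG2, at 12.4 CPM (9.46 to 15.95), the suffixes held 28.6, 6.17 and 5.93 CPM, so most of its excess over the pooled macrophages-like cells came from suffix 1. EC1 likewise varied, with 13.2, 23.3 and 49.5 CPM. The level of macrophages-like cells is not given by suffix.

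*Timp1* was higher in OG1, OG2, PO1 and EC1. In OG2 it went from 45.3 CPM (39.1 to 52.3) to 170.0 CPM (161 to 179) with suffix values of 165, 166 and 176 CPM, and in PO1 from 59.3 CPM (49.2 to 70.8) to 227 CPM (216 to 238). Macrophages-like cells held 37.9 CPM at E15.5 and 27.4 CPM at E17.5. *Mmp23* was higher in OG1, OG3, EC4 and LIG, most in OG1 with a ratio of 4.19. *Mmp2* was higher in OG1 and OG3, by 2.33-fold and 2.14-fold. *Adamts8* was higher in each of the 4 clusters where it could be counted, OG1, PO1, MG2 and LIG, from 7.80 to 24.7 CPM in OG1 and from 6.74 to 25.2 CPM in MG2. *Adamts2* was 2.09-fold higher in OG1, *Timp3* 2.04-fold in OG4 and *Mmp3* 3.22-fold in MG2. For *Timp3* macrophages-like cells held 37.2 CPM at E15.5 and 13.5 CPM at E17.5 and monocytes-and-granulocytes-like cells 25.4 CPM at E17.5, near the OG4 levels of 13.3 and 27.1 CPM. OG4 was below macrophages-like cells at E15.5 and above them at E17.5, and whether free RNA gave its levels was not tested. *Timp2*, *Mmp14*, *Adamts4*, *Adamts7*, *Adamts10*, *Adamts18* and *Adamts19* had no call in either direction. For *Mmp14* the ratios ran from 0.663 to 1.28 over the 12 clusters.

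**Figure D4:**
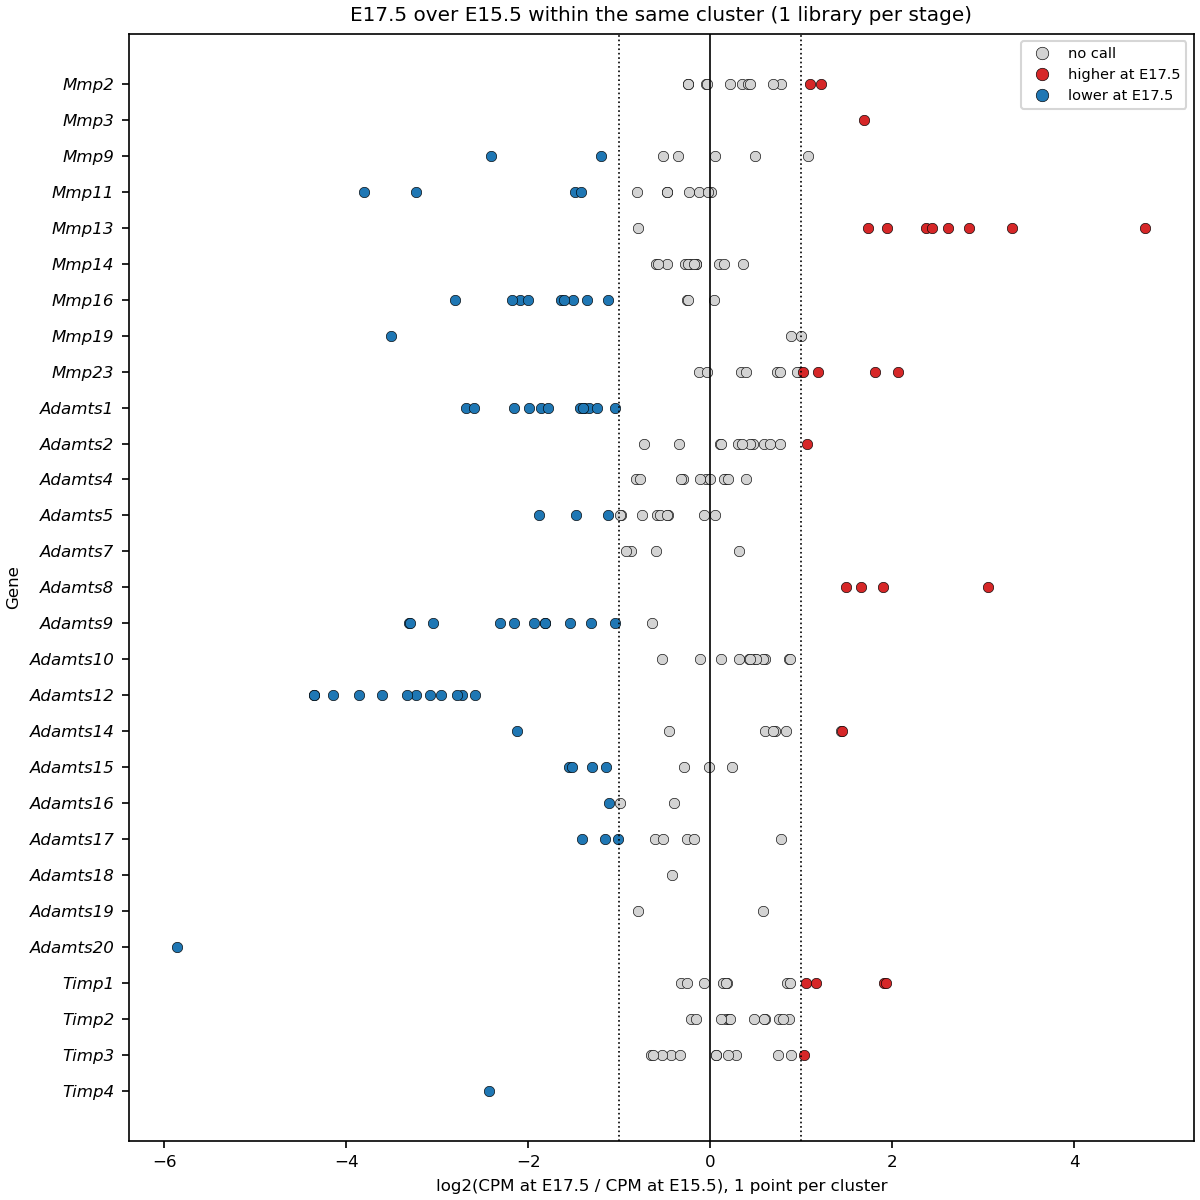
Ratio of CPM at E17.5 to CPM at E15.5 on a log2 axis for the 29 counted members, with 1 point for each of up to 12 clusters. Red points are higher and blue points lower at E17.5 by the rule, and dotted lines mark 2-fold. *Adamts1* and *Adamts12* lie to the left in all 12 clusters, *Mmp13* lies to the right in 8 of 9 and *Mmp14* stays near 0.

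Activators, inhibitors and relatives of the family were followed as a list of 28 genes, of which 27 had enough UMIs. They were called in 20 of 405 pairs with a cluster (4.94%, against 2.17% of all pairs), in 15 genes. *Adamtsl2*, a microfibril protein that resembles an ADAMTS without the enzyme, was called in MG1, MG2, MG3 and EC4, at no more than 7.64 CPM. *Spock3*, a proteoglycan, was called in EC2 and EC3 with 113 and 63.2 CPM in the first and 109 and 77.2 CPM in the second. *Plat*, tissue plasminogen activator, was called in EC2 with 111 and 185 CPM, together with *Adamtsl5* at 33.0 and 62.3 CPM. *Pcsk5*, a convertase that can activate proenzymes, was called in MG2 at 70.7 and 82.4 CPM, the cluster with the most called members. Between the stages 35 of 223 pairs were higher at E17.5 (15.7%, against 6.28%) and 21 were lower (9.42%, against 7.18%). *Plaur*, the urokinase receptor, had the most of these, 9 higher calls in 11 counted clusters, with 14.9 and 71.4 CPM in OG4. Its level in macrophages-like cells was 57.2 and 39.9 CPM. *Spock2* was higher in 6 of 8 clusters and *Adam9*, a membrane-bound sheddase, in 5 of 12, against 31.6 and 57.6 CPM of *Adam9* in macrophages-like cells.

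Of 20 matrix substrates, 18 had enough UMIs and 10 of 270 pairs were called (3.7%, against 2.17% of all pairs), in 8 genes (44.4%, against 24.3% of all genes). *Acan*, the aggrecan core protein, was called in MG1 with 191 and 142 CPM and in MG2 with 167 and 99.0 CPM, against 96.2 and 8.34 CPM in macrophages-like cells. *Vcan*, versican, was called in MG3 with 513 and 364 CPM, the cluster in which *Adamts5* was highest at E15.5, although MG4 held more at E17.5 with 679.8 CPM. *Spp1* and *Ibsp*, phosphoproteins of bone matrix, were called in OG4, *Spp1* at 3830.2 and 1297 CPM and *Ibsp* at 41200.0 and 13640.0 CPM. *Spp1* was also called in OG3. Between the stages 37 of 207 pairs were higher (17.9%, against 6.28%) and 48 lower (23.2%, against 7.18%). *Col2a1*, cartilage collagen, was lower in all 12 clusters, and *Hapln1* in 8. Macrophages-like cells went from 566 to 39.3 CPM of *Col2a1* and from 116 to 7.15 CPM of *Hapln1*. At E15.5 their *Col2a1* exceeded that of every labelled cluster other than MG1. Both genes were called in MG1. Whether free RNA gave the levels of these genes in other clusters was not tested. *Col1a1* was higher in 8 clusters and lower in OG4, *Spp1* and *Ibsp* were higher in 7 and lower in OG3 and OG4, and *Postn* was higher in 6, while *Vcan* was lower in 6 and *Fbn2* in 5. *Ibsp* in macrophages-like cells was 328 and 116 CPM, and outside the osteogenic clusters it did not pass 171 CPM, so its higher calls there lie near that level.

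The cells that the authors did not label, 2875 in the E15.5 matrix and 1937 in the E17.5 matrix after the study's cell limits, were clustered here without the member genes. They were named from markers where at least 4 markers of a type were 2-fold up. *Mmp9* was far higher there than in any labelled cluster. Osteoclasts-like cells (194 and 140 cells) held 664 CPM (637 to 692) and 1192 CPM (1151 to 1235), with a UMI in 72.7% and 58.6% of the cells. Pericytes-like cells (180 and 174 cells), led by *Rgs5* and *Myh11*, also held *Mmp9*, at 282 CPM (259.9 to 305) and 165 CPM (149 to 183). A UMI was found in 50.6% and 28.2% of them, against 7.84% and 5.81% of macrophages-like cells, at medians of 10270 and 11851 UMIs against 9667 and 9570.5. *Mmp13* was also present in the pericytes-like cells, at 164 CPM (147 to 182) and 52.7 CPM (43.6 to 63.0), less than in OG3. *Mmp11*, *Mmp3* and *Adamts4* were also higher in pericytes-like cells than in any labelled cluster in at least 1 library, *Adamts4* with 31.2 CPM (24.2 to 39.6) and 73.5 CPM (62.7 to 85.6), *Mmp11* with 95.2 CPM (82.9 to 109) at E17.5, and *Mmp3* with 12.1 CPM (7.91 to 17.8) and 10.6 CPM (6.81 to 15.8). As a group the pericytes-like cells therefore held several members, and whether single cells held them together was not counted. Pericytes-like cells were not the highest for *Adamts4* at E15.5, where an unnamed cluster of 46 cells held 143 CPM (107 to 188). The same cluster held 86.6 CPM (59.2 to 122) of *Adamts18*, above the 30.4 CPM of OG4.

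*Mmp8*, the collagenase of neutrophils, was below 50 UMIs in labelled cells and was found in monocytes-and-granulocytes-like cells (127 and 75 cells) at 36.1 CPM (24.98 to 50.4) and 89.0 CPM (67.2 to 116). *Adamts9* was higher in endothelial-like cells, with 150.3 CPM (118 to 188) and 47.5 CPM (37.3 to 59.6), and in mast-cell-like cells at E15.5, with 88.2 CPM (76.0 to 102). *Adamts1* was above every labelled cluster in pericytes-like cells, with 193 CPM (175 to 213) and 245 CPM (225 to 267), although at E15.5 MG2 was close at 170 CPM. At E17.5 its level was also above every labelled cluster in endothelial-like cells, at 139 CPM (121 to 159), and glia-like cells, at 188 CPM (144 to 240.4). *Mmp15* at E17.5 was at 23.8 CPM (16.7 to 32.7) in endothelial-like cells and 95.4 CPM (65.3 to 135) in glia-like cells, the latter from 32 cells. *Adamts4* was at 31.5 CPM (23.3 to 41.6) in endothelial-like cells of that library. *Adamts3* was highest in chondrocytes-like cells at E15.5, with 10.5 CPM (8.58 to 12.8). *Mmp19* was at 9.51 CPM (6.16 to 14.0) in osteoclasts-like cells at E17.5, no different from MG4 beyond counting error. Monocytes-and-granulocytes-like cells held 18.03 and 12.7 CPM of *Mmp19*, from 17 and 8 UMIs. At E17.5 chondrocytes-like cells held 51.4 CPM of *Mmp9* and 58.0 CPM of *Mmp13*. This came from 1 of the 2 clusters of that name, led by *Prg4* and *Clu*, with 92.0 CPM of *Mmp9* and 106 CPM of *Mmp13*, against 5.98 and 4.65 CPM in the other. At E15.5 the name covers other clusters, with 3.198 CPM of *Mmp9* and 1.34 CPM of *Mmp13*, and a cluster of 240 cells with *Prg4* and *Clu* among its leading genes stayed unnamed. That cluster held 31.3 CPM of *Mmp9* and 9.86 CPM of *Mmp13*, so the stages are not compared under this name.

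**Figure D5:**
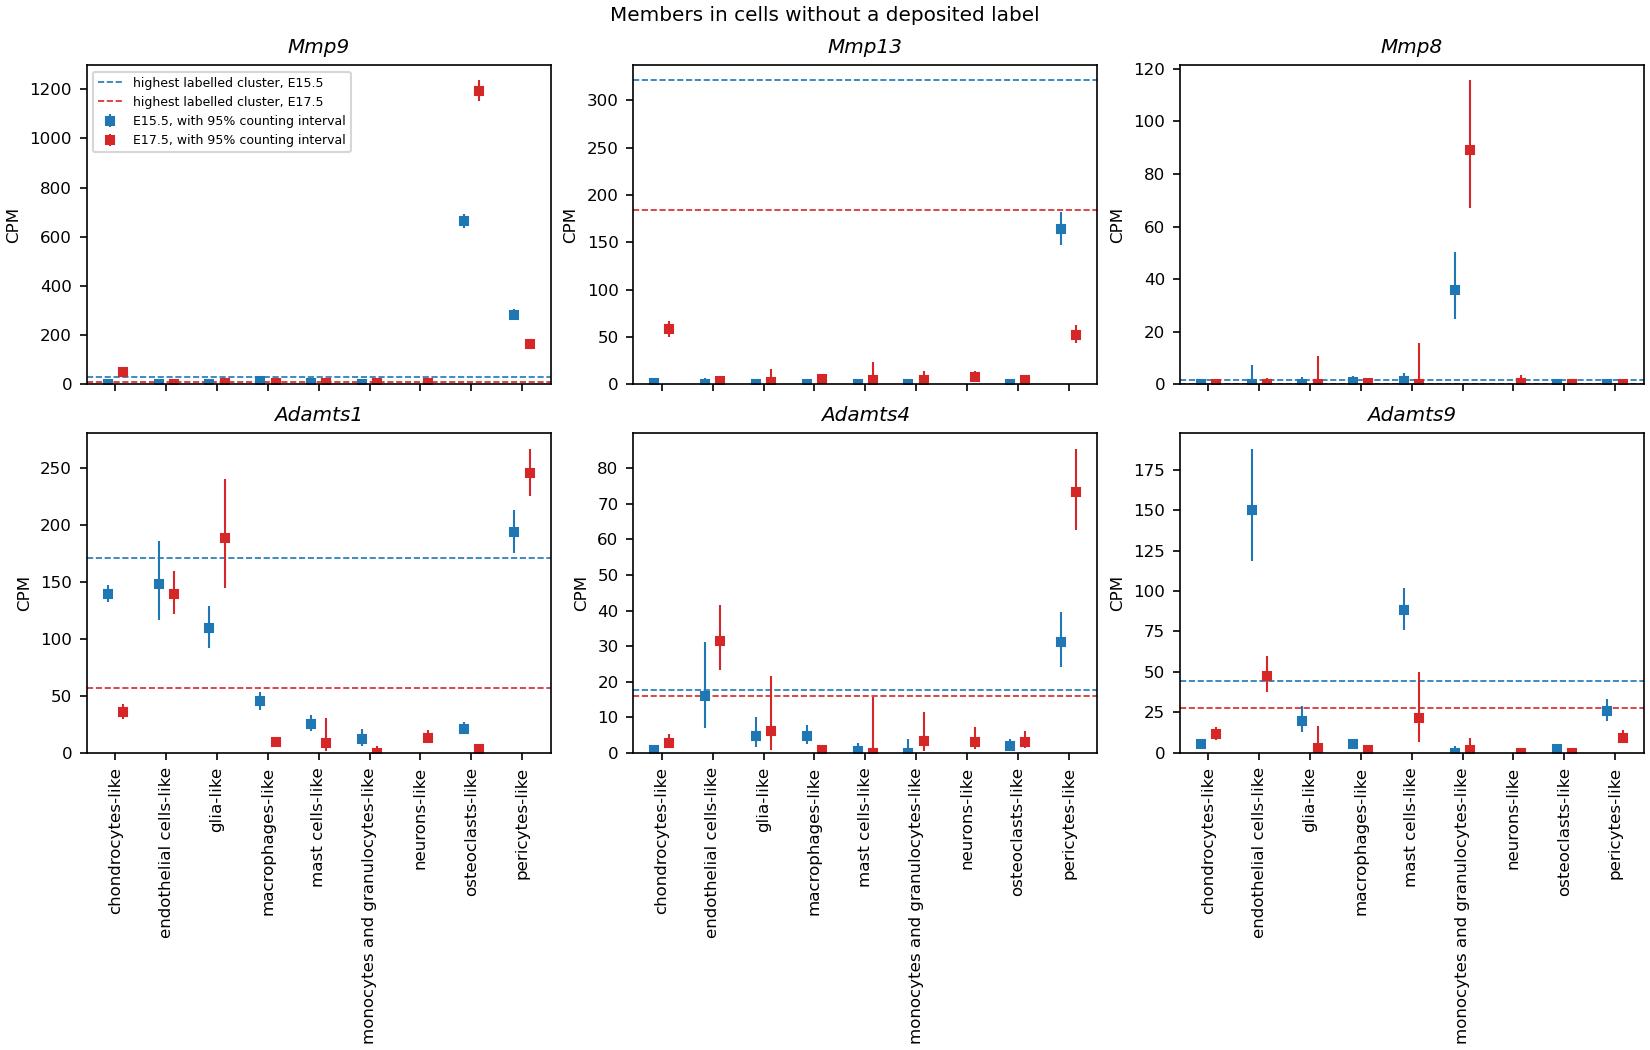
CPM of 6 genes in the named types among cells without a deposited label, at E15.5 (blue) and E17.5 (red) with exact Poisson 95% intervals as bars. Dashed lines mark the highest labelled cluster of each library. *Mmp9* is above the lines in osteoclasts-like and pericytes-like cells, *Mmp8* in monocytes-and-granulocytes-like cells and *Adamts9* in endothelial-like cells.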

How the data were processed

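Single-cell libraries were made with 10x Genomics 3′ reagents. The authors deposited raw UMI counts per gene and barcode on mm10, and a table with the library, cluster and total UMI count of each labelled cell from Seurat 3.2.0. The E15.5 matrix carries software version 3.1.0 in its header, a later one than the Cell Ranger version in the paper's methods. All 5335 labelled E15.5 cells had fewer UMIs in the matrix than in that table, and all 6830 E17.5 cells had equal numbers. The E15.5 matrix may thus be another count of the reads, and every E15.5 level and stage ratio rests on it.

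UMIs were summed per deposited cluster and library (48607817 and 92585034 UMIs) with pandas 2.3.3 and scipy 1.17.1. Genes entered with at least 50 UMIs over both libraries and at least 1 in each. No test was run, as each stage has 1 library. The steps were checked on simulated data. Unlabelled cells with at least 1000 UMIs and 1000 genes, no more than 7.5% of UMIs from mitochondrial genes and no more than 3% from Hbb or Hba genes were clustered with scanpy 1.11.5 (2000 variable genes, 30 principal components, Leiden resolution 1). Doublets were left in. Scrublet called 415 of 8210 E15.5 cells but 9, 28 and 4 per suffix at E17.5, too few to be relied on, so an alternative left out the cells whose score reached its 94th percentile. Thinning to 3000 UMIs left out 160 E15.5 cells.

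The members and lists were chosen with earlier results of these data known. Members with any call were named, and the 25 with the highest levels were given in full. Of the regulators and substrates the 8 with the most calls were named, and of the unlabelled types members with at least 20 UMIs and a level above every labelled cluster. *Acan*, and *Mmp13* in unlabelled cells, were added after their values were seen. Alternatives covered cell filters, normalization, thinning, single suffixes, gene matching, the UMI minimum and the fold limit.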

Additional observations from a re-analysis of the deposited data

How the results depend on the processing

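No paired analysis was possible because each stage has 1 library and no result comes from a test. The 27 called pairs of a member and a cluster became 58 with a limit of 1.5-fold and 12 with 3-fold, and the 18 called members became 28 and 10. A looser limit calls more pairs among any genes, so these counts describe the limit and are no result about the family. Between stages, the 26 higher pairs became 57 with mean UMIs per cell in place of CPM, 16 with thinned cells, 46 at 1.5-fold, 16 at 3-fold, and 11 and 16 with suffix 1 or suffix 2 alone, where 6 and 9 of the 12 clusters could be counted. The 65 lower pairs became 48 with mean UMIs per cell, fewer than the higher ones, 32 with thinned cells, 26 with suffix 1 alone and 40 at 3-fold. Of the 27 called pairs, 18 were among the 24 called after thinning. The number of clusters with more *Timp* than *Mmp* UMIs in both libraries was 2, and 1 after thinning or with suffix 1 alone, OG4 being above 1 in the 3 suffixes. With 20 principal components *Mmp9* in osteoclasts-like cells was 703 CPM at E15.5 and 1288 CPM at E17.5. Ratios of a member in its leading cluster to the other labelled cells stayed within their counting error in 400 of 470 cases and changed side of 1 in 6. *Adamts4* in OG4 at E15.5 was 0.886 without cells of high Scrublet score and 0.988 as a mean over cells. *Adamts14* in OG4 at E17.5 was 1.07 with mean UMIs per cell. *Mmp9* in OG3 at E17.5 was 0.943 after thinning and 0.904 with suffix 3 alone, and *Adamts12* in MG3 at E17.5 was 0.963 with suffix 1 alone. The cause was not tested.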
